A study of Mus musculus with 2 samples.

Results

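The microRNA loci Mir132, Mir212, Mir129-1, Mir129-2, Mir384, Mir488 and Mir873a were followed in the hindbrain of the mouse embryo at day 14.5. They were chosen by name as microRNAs tied to the activity and maturation of neurons, and their rows are 7 of the 1973 microRNA loci in the count tables. The tissue was hindbrain of strain B6NCrl, with no treatment or mutation in the labels, and each library was made from RNA shorter than 30 nucleotides, where mature microRNAs are found. There was 1 group of 2 libraries, replicate 1 collected on 24 July 2014 and replicate 2 on 30 July 2014, 6 days apart. The labels call each sample a single hindbrain, give its sex as pooled male and female and list the same donor for both. Whether the 2 libraries come from separate animals is therefore not known, so each SD and n below refers to these samples alone. Each adjusted p is from a binomial test of the 2 libraries that covers counting error only, not spread among samples. With 1 group there is no condition to compare, so the levels of the 7 loci, their relation to close relatives and their difference between the 2 libraries are described.

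MicroRNAs are cut from hairpin transcripts and guide the silencing complex to messenger RNAs through their seed, bases 2 to 8 from the 5′ end. In neurons, several are induced by synaptic activity or act in dendrites, where they restrain local protein synthesis. Mir132 and Mir212 are targets of the activity-dependent factor CREB and promote dendrite growth. The miR-129 microRNAs repress the messenger RNA of a potassium channel in dendrites, and miR-384-5p is known from long-term potentiation. Mir488 and Mir873a lie in neuronal genes. The hindbrain at this stage holds dividing progenitors beside young neurons.

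The mature sequences are shown because 2 features of them bear on the counts, namely seeds that the loci share and arms that more than 1 hairpin encodes. All 7 loci had a hairpin in the RefSeq microRNA table (GRCm38.p6), and mature arms ran from 21 to 23 nucleotides. Capitals mark the seed, and all sequences run 5′ to 3′.
miR-132-3p: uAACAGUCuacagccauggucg
miR-212-3p: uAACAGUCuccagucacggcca
miR-129-5p: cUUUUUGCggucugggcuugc
miR-129-2-3p: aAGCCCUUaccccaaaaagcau
miR-384-5p: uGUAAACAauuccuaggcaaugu
miR-30e-5p: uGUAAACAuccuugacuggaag
miR-488-3p: uUGAAAGGcuguuucuugguc
miR-873a-5p: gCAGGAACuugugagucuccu

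The seed AACAGUC of miR-132-3p occurred in 1 other arm of the table, miR-212-3p, and these arms were identical at 17 of 22 bases. Counted from the 5′ end of miR-132-3p, the differences were A10C, C14U, U17C, U20C and G22A, all outside the seed. The seed GUAAACA of miR-384-5p is also that of miR-30a-5p, miR-30c-5p and miR-30e-5p. The RefSeq sequences used held no entry for Mir30b or Mir30d, so the seeds of these 2 loci were not compared. The arms miR-384-5p and miR-30e-5p matched at 11 of 22 bases, of which 8 are the first base and the seed. The seed of miR-873a-5p recurred in miR-6370, whose locus Mir6370 had 0 counts in both libraries, an upper limit of 0.515 counts per 1000000 (CPM) for replicate 1 and 0.450 for replicate 2, from 3 counts. The seeds of miR-129-5p and miR-488-3p occurred in no other arm of that table.

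The hairpins of Mir129-1 and Mir129-2 are printed next because only part of each can be told apart by a short read. Capitals mark the bases inside runs of at least 20 that the hairpins share.
Mir129-1: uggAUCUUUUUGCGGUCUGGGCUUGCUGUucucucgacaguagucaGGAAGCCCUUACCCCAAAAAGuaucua
Mir129-2: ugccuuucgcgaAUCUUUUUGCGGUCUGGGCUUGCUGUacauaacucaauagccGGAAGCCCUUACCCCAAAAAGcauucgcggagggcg

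The whole 5p arm, the same sequence in both hairpins, lies inside the first shared run of 26 bases. Of the 22 bases of miR-129-2-3p, 19 lie in the second shared run, and the 3p stretch of the Mir129-1 hairpin differs from it by C20U, counted from the 5′ end of miR-129-2-3p. Reads that map to several places were not assigned to any locus in the deposited tables, and their share of the reads was 33.9% and 34.3%. The counts of Mir129-1 and Mir129-2 therefore leave out any read that lies within a shared run, and their levels are lower limits for what these genes make. None of the other 5 hairpins shared a run of 20 bases with another hairpin of the table. The tables give 1 count per hairpin, so the arms cannot be told apart, and capture bias between sequences, which was not measured, enters every comparison of levels between loci.

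The 2 libraries held 5826676 and 6667238 counts on the gene strand of microRNA loci, and 401 loci had at least 10 counts in each. Levels are CPM, counts per 1000000 such counts, and intervals are 95% Clopper-Pearson intervals for counting error. These intervals treat each read as a separate draw. Reads without molecular identifiers may be copies of 1 molecule, which would make the intervals too narrow. Of 6 Hox cluster microRNAs, listed as markers of position, 5 were detected, led by Mir10a with 96400 ± 17074 CPM (SD, n = 2). Of 12 neuronal markers 11 were detected, led by Mir149 with 14266 ± 1557 CPM. The lowest were Mir124a-1, Mir124a-2 and Mir124a-3, with means of 7.75, 3.13 and 1.03 CPM. Mir124a-3, with 5 and 8 counts, was the marker not detected. Reads that fit more than 1 locus were not assigned, and how many the Mir124a loci lost was not measured. The summed levels of other cell types' markers in replicates 1 and 2 were 38379 and 43617 CPM for endothelium and mural cells (3 of 3 detected), 12786 and 8010.4 CPM for ciliated and choroid cells (6 of 6), 3344 and 3041 CPM for oligodendrocytes (3 of 3), 472 and 595 CPM for red and myeloid cells (4 of 5, with no row for Mir142a) and 15.4 and 16.5 CPM for muscle (1 of 6, with Mir1a-1 and Mir133a-1 at 0 and no row for Mir1a-2). The leading loci of these lists were Mir126a (34235 ± 3467 CPM), Mir449a (5252 ± 2154 CPM), Mir219a-2 (2618 ± 252 CPM), Mir451a (274 ± 56.8 CPM) and Mir206 (15.6 ± 0.896 CPM) (SD, n = 2).

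All 7 neuronal maturation loci were detected, with between 260 and 6553 counts in a library. Together they held 0.180% of counts in replicate 1 (interval 0.176 to 0.183, from 10466 counts) and 0.207% in replicate 2 (0.203 to 0.210, from 13771 counts), or 0.193% ± 0.0190 (SD, n = 2). Mir132 alone supplied 48.2% ± 0.876 of that sum and Mir384 21.8% ± 0.834, and the other 5 loci held the remainder. Because the counts of Mir129-1 and Mir129-2 are lower limits, these 2 shares of the sum are upper limits. The median of the 7 loci rests on the same counts. Their median level was 165.8 CPM against 129.8 CPM over the 401 detected loci, so as a set they sat near the middle of what was measured, as the plot of ranks shows. In bulk tissue, few cells with much of a microRNA and many cells with little of it cannot be told apart.

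**Figure D1:**
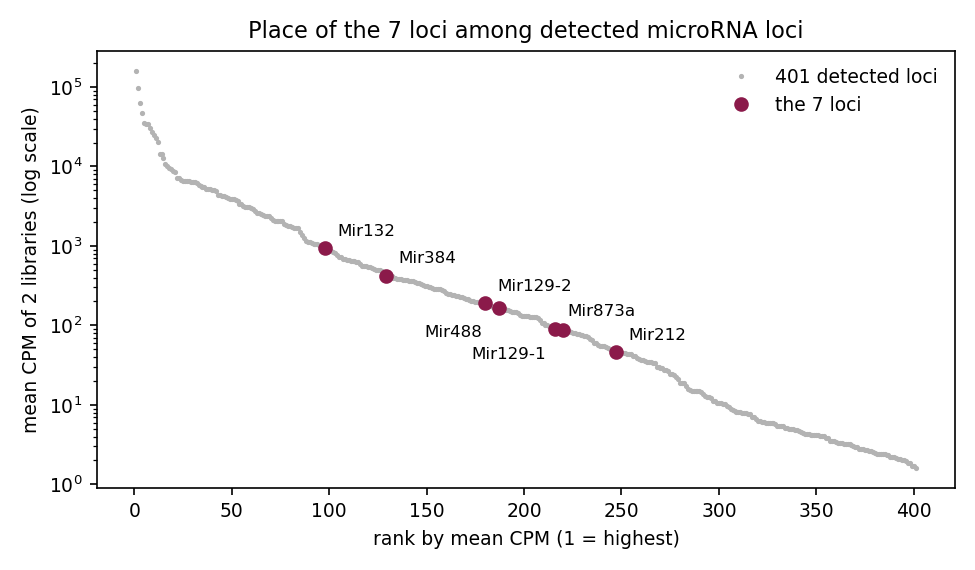
Mean CPM over 2 libraries (log axis) against rank for the 401 detected microRNA loci (grey), with the 7 loci in dark red. Mir132 stands at rank 98 and Mir212 at rank 247, and the others lie between them.

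Mir132, the highest of the 7, was measured at 877 CPM (replicate 1) and 983 CPM (replicate 2), from 5110 and 6553 counts. Its mean of 929.9 ± 74.9 CPM (SD, n = 2) put it at rank 98 of all loci, at or above 75.8% of detected loci. The hairpin (ENSMUSG00000065537.1) lies on chromosome 11 at 75173682 to 75173747 (GRCm38, plus strand) in an intron of the noncoding gene 1700016P03Rik. Mir212 (ENSMUSG00000065590.1) lies 203 bases upstream at 75173388 to 75173478 in an intron of the same gene. Mir212 had 44.6 and 47.7 CPM, from 260 and 318 counts, with a mean of 46.2 ± 2.17 CPM (SD, n = 2), the lowest of the 7 loci. Although the hairpins share a host gene and a seed, Mir132 exceeded Mir212 by 19.7-fold in replicate 1 (17.3 to 22.3) and 20.6-fold in replicate 2 (18.4 to 23.1). The counting intervals of the 2 libraries overlap, and the mean ratio was 20.1 ± 0.674 (SD, n = 2).

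Mir129-2 stood at 160.0 CPM in replicate 1 and at 219 CPM in replicate 2, from 932 and 1462 counts, a mean of 189.6 ± 42.0 CPM (SD, n = 2). This hairpin (ENSMUSG00000065511.1) lies on chromosome 2 at 94241364 to 94241453 (minus strand) in an intron of Mir670hg. Mir129-1 had 88.0 and 87.1 CPM, from 513 and 581 counts, a mean of 87.6 ± 0.637 CPM (SD, n = 2). That hairpin (ENSMUSG00000065469.1) lies on chromosome 6 at 29022619 to 29022691 (plus strand) and overlaps an exon of the noncoding gene Gm3294. The ranges of the loci did not overlap, with Mir129-2 the higher in both libraries. Their ratio was 1.82 (1.63 to 2.03) in replicate 1 and 2.52 (2.28 to 2.78) in replicate 2, and these intervals do not overlap. Both levels and their ratio leave out reads that lie within the shared runs. Mir670, another locus of the Mir670hg region, 19.8 kb from Mir129-2 and picked with its values in view, was measured at 68.6 and 65.4 CPM, with a log2 ratio between the libraries of -0.11 that did not pass the binomial test. An annotated hairpin on the opposite strand, Mir129b, overlaps Mir129-2 and has no row of its own, and the opposite-strand column of Mir129-2 held 2 counts in replicate 1 and 0 in replicate 2.

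Mir384 was the second highest of the 7, at 402 and 438 CPM from 2345 and 2923 counts, a mean of 420.4 ± 25.4 CPM (SD, n = 2). Its hairpin (ENSMUSG00000065499.1) lies on chromosome X at 105344282 to 105344369 (minus strand), outside other annotated genes. The nearest locus looked at on the same strand, Mir325, lies 34.7 kb away and was also picked with its values in view. Mir325 stood at 644 and 707 CPM, and its ratio to Mir384 was 1.60 (1.52 to 1.69) in replicate 1 and 1.61 (1.54 to 1.69) in replicate 2. The level of Mir384 was small beside that of the Mir30 loci with the same seed. Mir30e had 22831 ± 1039 CPM and Mir30a 9556 ± 510.2 CPM, while Mir30c-1 and Mir30c-2, whose 5p arm is identical, were assigned 60.0 ± 5.93 and 44.0 ± 1.58 CPM (SD, n = 2). A read that fits both Mir30c loci was assigned to neither, so their levels are lower limits and any share of Mir384 among these loci an upper one. Mir384 made up 1.18% (1.14 to 1.23) and 1.38% (1.33 to 1.43) of the counts of these 5 loci. These 5 loci may not be the whole seed family, because the RefSeq sequences used lack Mir30b and Mir30d. Adding Mir30b (162 ± 11.2 CPM) and Mir30d (6616 ± 10.5 CPM) by name, a choice made after the data were seen, gave 0.987% and 1.14%.

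**Figure D2:**
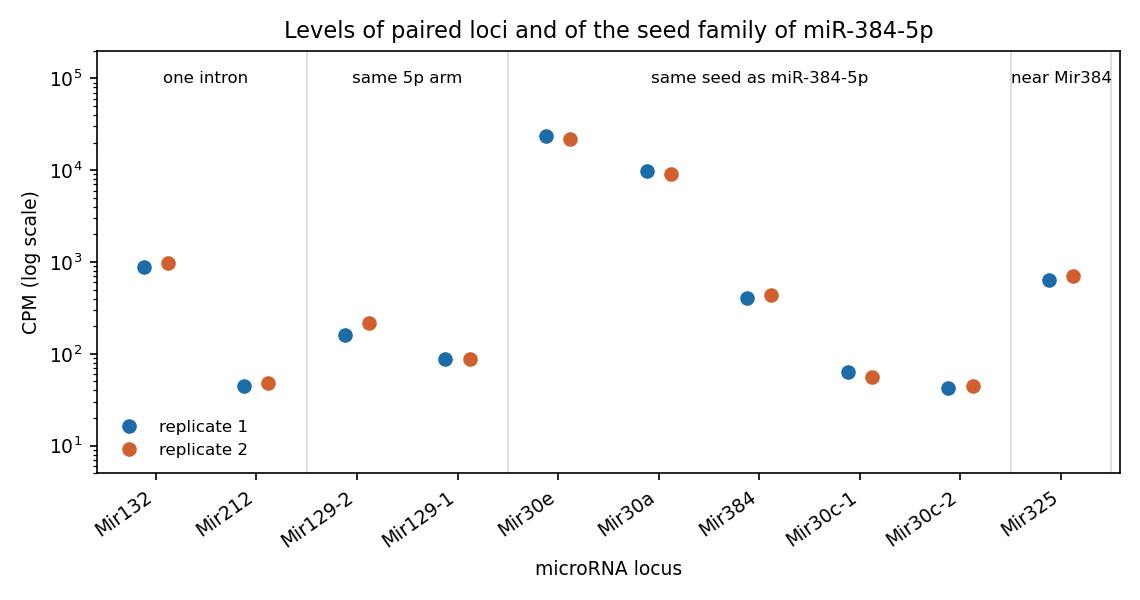
CPM (log axis) of loci that share a host gene, an arm, a seed or a neighbourhood, with replicate 1 in blue and replicate 2 in orange. The group labelled "one intron" holds Mir132 and Mir212, which each lie in an intron of the same host gene. Whether it is the same intron was not checked. Mir132 lies 19.7 and 20.6 times above Mir212 in the 2 libraries, and Mir384 lies below Mir30e and Mir30a, which carry its seed. It lies above the counts assigned to the 2 Mir30c loci, which are lower limits.

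Mir488, in an intron of Astn1, the gene of astrotactin that young neurons use to migrate along glial fibres, was measured at 149 CPM in the first library and 182 CPM in the second. The counts were 869 and 1216 and the mean was 165.8 ± 23.5 CPM (SD, n = 2). The hairpin (ENSMUSG00000070103.2) lies on chromosome 1 at 158505625 to 158505733 (plus strand), and an antisense gene, Gm37679, spans the same place on the other strand. No count of Mir488 stood in the opposite-strand column. Mir873a, in an intron of Lingo2, which encodes a membrane protein with leucine-rich repeats, had 75.0 and 108 CPM from 437 and 718 counts, a mean of 91.3 ± 23.1 CPM (SD, n = 2). The Mir873a hairpin (ENSMUSG00000078057.1) lies on chromosome 4 at 36668510 to 36668586 (minus strand). Mir876, 23.1 kb away on the same strand and likewise picked with its values in view, had 1 count in replicate 1 and 0 in replicate 2. The hairpin Mir873b, annotated on the opposite strand of Mir873a, has no row, and 0 counts of Mir873a stood on the opposite strand in both libraries.

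In order of mean level the loci ran Mir132, Mir384, Mir129-2, Mir488, Mir873a, Mir129-1 and Mir212, and the first exceeded the last by 20.1-fold. All mature arms are of nearly equal length, and dividing by it left the order as it was. Neighbours in this order whose ranges over the 2 libraries did not overlap were Mir132 and Mir384 (2.21-fold apart), Mir384 and Mir129-2 (2.22-fold), Mir488 and Mir873a (1.81-fold) and Mir129-1 and Mir212 (1.90-fold). The ranges of Mir129-2 and Mir488 overlapped, as did those of Mir873a and Mir129-1. Mir873a was below Mir129-1 in replicate 1 and above it in replicate 2. The counts of Mir129-2 and Mir129-1 leave out reads within their shared runs. Their places and fold gaps in this order are thus those of lower limits, and each could stand higher.

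**Figure D3:**
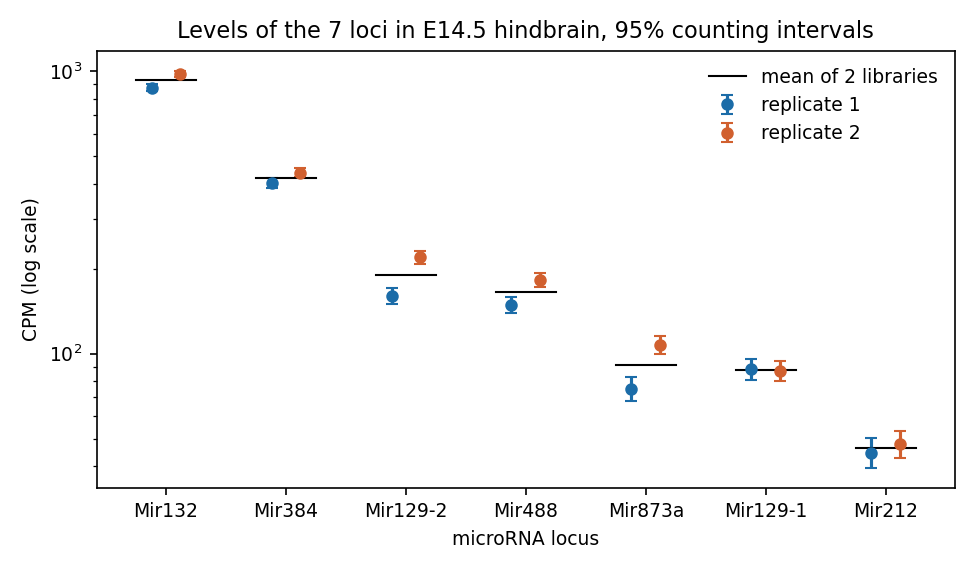
CPM (log axis) of each of the 7 loci in replicate 1 (blue) and replicate 2 (orange), with 95% Clopper-Pearson intervals and the mean of the 2 libraries as a black line. Mir132 ranges from 877 to 983 CPM and Mir212 from 44.6 to 47.7 CPM, and the intervals of the 2 libraries lie apart for Mir132, Mir384, Mir129-2, Mir488 and Mir873a.

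By distance between log2 CPM values over the 2 libraries, among 401 detected loci, Mir132 lay nearest to Mir7b (968 ± 37.7 CPM) and Mir384 to Mir501 (416 ± 11.9 CPM). Mir129-2 lay nearest to Mirlet7a-2 (192.3 ± 25.2 CPM), Mir488 to Mir410 (159.9 ± 25.0 CPM) and Mir873a to Mir33 (99.5 ± 27.3 CPM). The nearest locus to Mir129-1 was Mir194-2 (89.1 ± 2.82 CPM) and that to Mir212 was Mir758 (45.2 ± 1.81 CPM) (SD, n = 2). With 2 libraries this measures likeness of level only.

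Mir873a, Mir129-2, Mir488 and Mir132 were higher in replicate 2 than counting error allows. After TMM scaling, Mir873a had a log2 ratio of replicate 2 over replicate 1 of 0.48 (interval 0.31 to 0.65, adjusted p = 1.98e-07), by an exact two-sided binomial test with Benjamini-Hochberg adjustment over all 498 loci tested. By the same exact test Mir129-2 had 0.41 (0.29 to 0.53, adjusted p = 4.53e-11). Mir488 had 0.25 (0.12 to 0.37, adjusted p = 4.69e-04, exact test) and Mir132 had 0.12 (0.07 to 0.17, adjusted p = 3.16e-05, exact test). Mir384 with 0.08 (0.00 to 0.16), Mir212 with 0.05 (-0.19 to 0.30) and Mir129-1 with -0.06 (-0.23 to 0.12) did not pass. Mir129-1 was the only one of the 7 with a ratio below 0.

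So 4 of the 7 loci, or 57.1%, were called, where the binomial test called 32.5% of the 498 loci tested, 17.5% higher and 15.1% lower in replicate 2. Among the 311 loci with 100 or more counts over both libraries, as all 7 have, it called 52.1% in either direction and 25.1% as higher in replicate 2, the direction of all 4. The median log2 ratio of the 7 was 0.12, against 0.01 over all loci tested. The test compares 2 libraries, not conditions, and allows for no spread beyond counting. The exact test of edgeR with a common dispersion called 1.41% of all loci and 0 of the 7, and 1 of them, Mir873a, had an unadjusted p under 0.05. Its dispersion was estimated from the same 2 libraries and so holds the differences under test. This test therefore cannot judge the ratios of the 7 loci. Scaled by library totals instead, Mir384 also passed (log2 ratio 0.12), which made 5 of the 7.

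**Figure D4:**
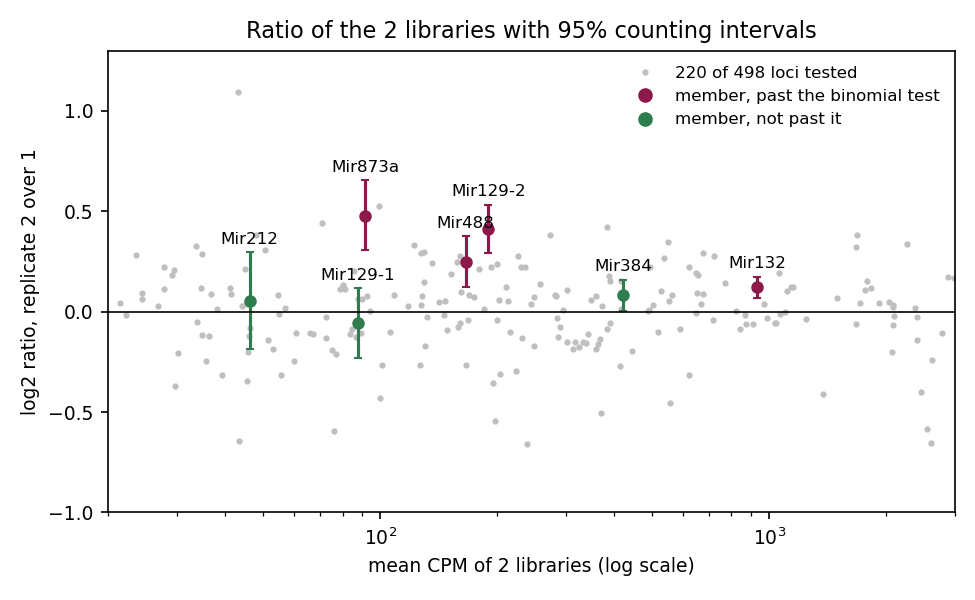
Log2 ratio of replicate 2 over replicate 1 after TMM scaling against mean CPM (log axis, 20 to 3000 CPM), for the 220 of 498 tested loci within the axes (grey) and the 7 loci with 95% counting intervals. Mir873a, Mir129-2, Mir488 and Mir132 (dark red) lie above 0 past the binomial test, and Mir384, Mir212 and Mir129-1 (green) do not pass it.

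The other microRNAs of synapses and dendrites, a list of 15, were all detected, with levels from 33.9 to 10171 CPM and a median of 1058 CPM, above each of the 7 loci. Leading members were Mir137, a regulator of dendrite and spine form, with 9697 and 10645 CPM, Mir22 with 5832 and 7200.4 CPM, Mir381 of the imprinted Dlk1-Dio3 cluster with 5037 and 5202 CPM, and Mir153, which lies in a gene of secretory vesicles, with 1965 and 2553 CPM. Between the libraries 5 of the 15 were higher in replicate 2, 1 was lower and 9 did not pass the binomial test. That test called 32.5% of all loci tested, 17.5% higher and 15.1% lower. Among loci with 100 or more counts over both libraries, as all 15 have, it called 52.1%, with 25.1% higher in replicate 2. Their median log2 ratio was 0.01, the same as over all loci. Mir153 had a log2 ratio of 0.33 (0.30 to 0.37), Mir22 0.26 (0.24 to 0.28) and Mir137 0.09 (0.08 to 0.11), while Mir381 had 0.00 (-0.02 to 0.03). The edgeR test with a common dispersion cannot judge these ratios either, because they went into its allowance for spread.

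Marker lists of other cell types were counted in the same test, which called 32.5% of all loci, 17.5% higher and 15.1% lower in replicate 2. Among the 311 loci with 100 or more counts over both libraries it called 52.1%, 78 higher and 84 lower. Some list members, such as Mir449b and Mir124a-3, have fewer counts. In the ciliated and choroid list 0 of 6 members were higher and 5 were lower in replicate 2. In the Hox cluster list 0 were higher and 3 of 5 tested were lower, and in the red and myeloid list 2 of 4 were higher and 0 were lower. In the list of endothelium and mural cells 2 of 3 were higher and 0 were lower, in the oligodendrocyte list 1 of 3 was higher and 1 was lower, and the 1 muscle locus tested did not pass. The neuronal list, which shares members with the synapse and dendrite list, had 5 of 12 higher and 1 lower. Whether the calls in these lists exceed spread among samples is not known, since the edgeR test cannot decide it with 2 libraries of 1 group. The part of tissue makeup, dissection or collection day in the ratios of the 7 loci was not tested, and collection day and replicate cannot be told apart.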

How the data were processed

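Small RNA libraries of 1 group, embryonic hindbrain, were analysed as 2 replicates, numbered as in the labels. Raw read counts for each microRNA locus, over both strands and by strand, are in the tables the authors deposited, on mm10 with annotation M4 per the file lists deposited with them. What aligned and counted the reads is not given in the sources used here. The strand column with 98.0% and 97.8% of counts was used. Unmapped (13.8% and 15.9%), multimapping and unassigned reads (2.99% and 3.31%) stayed out of library sizes. GENCODE M21 on the same build gave symbols, positions and hosts for 1894 of 1973 loci. The members, lists and tests were chosen with earlier results of these data known.

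Loci with 10 or more counts over both libraries were tested with an exact binomial test, at 0.05 after Benjamini-Hochberg adjustment, with edgeR's TMM factors (0.985 and 1.01) and 0.5 added for log2 ratios. With 1 group of 2, no degrees of freedom remain for a quasi-likelihood fit. As an alternative, edgeR's exact test used a common dispersion (coefficient of variation 10.8%, estimated from the same 2 libraries). The differences under test thus went into that dispersion, and this test cannot judge them. Other alternatives were DESeq2 size factors, library totals, upper quartile scaling and other filters, strands and denominators. The binomial test was tried on simulated counts without spread beyond counting, so that trial does not cover such spread between these 2 libraries. By rule, loci named were the members, their seed relatives, neighbours within 10 kb, leading list members and the nearest locus in level. Mir670, Mir325, Mir876, Mir30b and Mir30d fall outside it and were chosen after their values were seen. Statistics and scaling used R 4.3.3 with edgeR 4.0.16 and DESeq2 1.42.0, tests and tables used Python 3.11.15 with scipy 1.17.1, pandas 2.3.3 and numpy 2.4.6, and plots used matplotlib 3.10.9.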

Additional observations from a re-analysis of the deposited data

How the results depend on the processing

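No paired analysis was possible because there is only 1 group. Over all reads in place of counts on microRNA loci, the summed share of the 7 loci was 0.0923%, since that denominator also holds unmapped and multimapping reads. Leaving out 1 replicate gave 0.180% to 0.207% for that share, 19.7 to 20.6 for the Mir132 to Mir212 ratio and 1.82 to 2.52 for the Mir129-2 to Mir129-1 ratio. With 2 libraries this only returns the value of the other library, so it is no separate check. The share of Mir384 among the 5 loci with its seed in the RefSeq sequences was then 1.18% to 1.38%. With Mir30b and Mir30d, which those sequences lack, its mean share over both replicates was 1.06%. In replicate 1 alone 2 loci, Mir873a and Mir129-1, changed places in the order of levels, and in replicate 2 alone 0 did. All 7 loci were also detected at a minimum of 100 or 3 counts and with both strands. The main setting called 162 loci and 4 members. Calls under edgeR's common dispersion are not set against these, because that dispersion already holds the differences tested. Under the other scalings and filters and with both strands, 157 to 173 loci and 4 or 5 members were called, members always higher in replicate 2. The share of calls that were higher was 53.7%, against 65.9% with library totals, and the split of 87 higher and 75 lower became 114 and 59. It turned to 80 and 88 (47.6%) with DESeq2 size factors, 82 and 87 (48.5%) with upper quartile scaling and 78 and 84 (48.1%) with a summed count of at least 100. No log2 ratio of a member changed sign under the 9 alternatives run, and leaving out a replicate leaves no ratio between libraries. Reads of the 2 Mir129 loci lost to their shared runs were not measured. The intervals of Mir212 and Mir129-1 could not show a difference between the libraries as small as that of Mir132.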
